A study of Rattus norvegicus with 60 samples.

Results

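Methylprednisolone (MP), a synthetic glucocorticoid, was compared with its vehicle in the injured rat spinal cord at 24 h and 48 h after medication. The comparison took the 4 SCI-MP and the 4 SCI-EtOH arrays whose sample labels carry these times, 8 of the 60 arrays of the series, and all 15097 probe sets of the Affymetrix rat gene array (whole transcript) that the platform annotation gives exactly 1 gene symbol (14324 genes), out of 27342. The animals were female Long Evans rats of 8 or 9 weeks. The rats of all 4 of these groups had a contusion of the thoracic cord from a weight-drop impactor. SCI-MP rats then received 30 mg/kg of MP dissolved in 70% ethanol, and SCI-EtOH rats received the 70% ethanol alone, each into a vein. RNA came from the 5 mm of cord around the lesion. Each array held the RNA of 1 rat, with 2 rats per group and time, and the number of arrays limits the precision of each value. Sham-operated rats given MP (S-MP) or ethanol (S-EtOH) at the same times gave 8 further arrays, and injured rats at 2 to 12 h gave 20.

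MP binds the glucocorticoid receptor, which moves to the nucleus, raises some genes by binding DNA and lowers many inflammatory genes by interfering with factors such as NF-kappaB and AP-1. After a contusion, blood neutrophils enter the cord first, monocytes follow and become macrophages, and resident microglia and astrocytes are activated while neurons and oligodendrocytes are lost. In a bulk sample, fewer cells of a type and less RNA per cell cannot be told apart. The deposited values are log2 values centred near 0 for each probe set, so they show differences between arrays but no level, a gene cannot be set against another gene by its value, and the presence of spinal cord or leukocyte markers cannot be checked from them.

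With MP, 164 probe sets (150 genes) were higher and 259 (257 genes) were lower at an adjusted p under 0.05 (limma, Benjamini-Hochberg over 15097 probe sets, time as covariate). These were 1.09% and 1.72% of all probe sets, or 2.80% in either direction. The balance of rises and falls depended on the scaling, with 324 higher and 185 lower after quantile normalization of the arrays and 170 and 176 with array medians set to 0. The differences of these probe sets ran from -1.59 to 1.59 on the log2 scale, with a median of 0.56 among those higher and -0.50 among those lower, against a median of -0.03 over all probe sets. The largest falls included Slc16a3, a lactate exporter, the chemokine receptor Cxcr4 and Fgr, a kinase of myeloid cells. The largest rises were in Rps15a, a protein of the small ribosomal subunit, in Stmn1, a regulator of microtubules, and in Tecr, an enzyme of fatty acid elongation.

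Some arrays stood apart. The SD over all probe sets was 0.363 in SCI-MP 24 h duplicate 2 and 0.536 to 0.595 in the other 7 injured arrays. In the same array the mean of 17 neuron structural markers was -0.98, against -1.52 to -2.20 in the other 7. At 48 h, SCI-EtOH duplicate 1 correlated better with SCI-MP duplicate 2 (r = 0.90 over all probe sets) than with its own duplicate (r = 0.81). The mean of 33 cell cycle probe sets was 1.90 and 2.08 in that pair of arrays, and 0.42 and 1.09 in the other SCI-EtOH and SCI-MP array of 48 h. The part of these differences in the results was not tested. Without SCI-MP 24 h duplicate 2, 92 probe sets passed the threshold, 77 of them among the 423. Without SCI-EtOH 48 h duplicate 2, SCI-MP 48 h duplicate 1 or SCI-MP 48 h duplicate 2, the counts were 25, 10 and 3, and without either SCI-EtOH 24 h array, SCI-EtOH 48 h duplicate 1 or SCI-MP 24 h duplicate 1, it was 0 in limma, with 2656 to 2779 probe sets at an unadjusted p under 0.05.

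At 0 h, right after vehicle was given, injured and sham cord already differed, and this difference was opposite in sign to that with MP for many of the 423 probe sets. Of the 164 probe sets higher with MP, 86 were lower in SCI-EtOH than in S-EtOH at 0 h at an unadjusted p under 0.05, as were 4.34% of all probe sets. Of the 259 lower with MP, 111 were higher at 0 h, as were 9.98% of all. The median 0 h difference was -0.31 for the first, 0.22 for the second and 0.05 for all probe sets. At an adjusted p under 0.05, 79 probe sets differed at 0 h (0.523%), 41 higher (0.272%) and 38 lower (0.252%) in injured cord. There are no MP rats at 0 h, so whether SCI-MP rats shared this difference cannot be told. With the 0 h difference added to the difference with MP, 0 probe sets passed the threshold in limma, and 917 had an unadjusted p under 0.05. This sum also carries the spread of the 0 h arrays, and it takes SCI-MP rats as not sharing the 0 h difference. Of the 24 leading rises and falls described below, chosen by their difference with MP, 21 had an unadjusted p under 0.05 in this sum. So 0 calls here do not show that the difference with MP was absent.

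**Figure D1:**
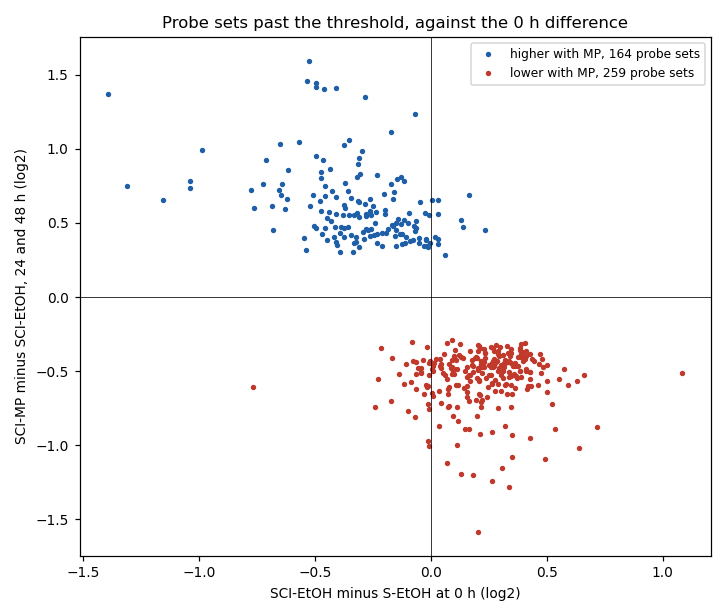
Difference at 0 h (horizontal, SCI-EtOH minus S-EtOH, log2) against the difference with MP over 24 and 48 h (vertical, SCI-MP minus SCI-EtOH, log2) for the 423 probe sets past the threshold, 1 point per probe set. The 164 probe sets that were higher with MP have a median 0 h difference of -0.31, and the 259 that were lower a median of 0.22.

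Receptors and kinases of leukocytes were among the leading falls. Cxcr4, the receptor through which Cxcl12 retains and attracts leukocytes, read 1.63 and 1.49 at 24 h and 1.73 and 1.27 at 48 h in SCI-EtOH cord. With MP it read 0.35 and 0.02 at 24 h and 0.39 and 0.23 at 48 h. All 4 MP arrays lay below all 4 vehicle arrays, and Cxcr4 fell by 1.28 (SE 0.13, adjusted p = 0.0165, limma), which is 2.43-fold lower. Csf3r, the receptor for granulocyte colony-stimulating factor and a neutrophil marker, read 2.30 and 2.18, then 1.53 and 1.40 in vehicle arrays. It read 1.45 and 0.62, then 0.11 and 0.62 with MP. The groups did not overlap within either time, but the higher MP array of 24 h lay above the lower vehicle array of 48 h, and Csf3r fell by 1.15 (SE 0.19, adjusted p = 0.034). Itgb2, the beta chain shared by the leukocyte integrins, read 1.78 and 2.37, then 2.08 and 1.64 with vehicle, and 1.16 and 0.56, then 1.01 and 1.09 with MP. It fell by 1.02 (SE 0.20, adjusted p = 0.0465), with all MP arrays below all vehicle arrays. Fgr, a Src-family kinase of myeloid cells, fell by 1.24 (SE 0.22, adjusted p = 0.0385), from 1.81 to 2.83 in the vehicle arrays to 0.64 to 1.41 with MP. Unc93b1, which carries toll-like receptors to endosomes, fell (adjusted p = 0.0368, SE 0.17) from 1.22 to 1.61 in the vehicle arrays to -0.18 to 0.65 with MP. Glipr1, a member of the CAP protein superfamily, fell by 1.20 (SE 0.22, adjusted p = 0.044), and Sema4a, a membrane semaphorin, by 1.19 (SE 0.18, adjusted p = 0.031).

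The monocyte-attracting chemokines Ccl7 and Ccl2 were also lower. Ccl7 read 2.50 and 2.44 at 24 h and 2.05 and 1.99 at 48 h with vehicle. It read 1.22 and 1.13, then 1.07 and 1.25 with MP, below every vehicle array, and fell by 1.08 (SE 0.10, adjusted p = 0.0165). Ccl2 fell by 0.88 (SE 0.10, adjusted p = 0.0232), from 1.29 to 1.81 in vehicle arrays to 0.47 to 0.77 with MP. With the 0 h difference added, the difference was -0.73 for Ccl7 and -0.16 for Ccl2. Against S-EtOH cord, Ccl7 was 3.37 higher in SCI-EtOH and 2.29 higher in SCI-MP (adjusted p = 1.09e-06 for SCI-MP). Ccl2 was 4.09 and 3.22 higher (adjusted p = 1.68e-06 for SCI-MP). These differences from sham share the SCI-EtOH or SCI-MP arrays with the difference with MP.

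The other leading falls were Slc16a3, Egln3, Ppp1r3b and Tpcn2. Slc16a3, the lactate exporter MCT4, read 3.41 and 3.78 at 24 h and 2.96 and 2.73 at 48 h with vehicle. With MP it read 1.74 and 1.26, then 1.83 and 1.70, all below the vehicle arrays. It had the largest fall among the probe sets past the threshold, 1.59 (SE 0.23, adjusted p = 0.0274). Egln3, a prolyl hydroxylase that marks hypoxia-inducible factors for degradation and is itself induced by hypoxia, read 1.27 and 1.53, then 0.63 and 0.89 with vehicle, and -0.12 and -0.23, then 0.36 and -0.17 with MP. It fell by 1.12 (SE 0.21, adjusted p = 0.0442), and all MP arrays lay below all vehicle arrays. Ppp1r3b, which brings protein phosphatase to glycogen, fell (adjusted p = 0.0274, SE 0.14) from 1.37 to 2.35 in the vehicle arrays to 0.39 to 1.09 with MP, and Tpcn2, an endolysosomal cation channel, fell by 1.09 (SE 0.12, adjusted p = 0.0195).

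All 12 leading falls were raised in SCI-EtOH cord against S-EtOH cord at an adjusted p under 0.05, and 5 of the 12 leading rises were lower. Of all probe sets 24.8% were higher and 22.3% lower, but the leading genes were chosen with the same SCI-EtOH arrays, so these shares are not what no change would give. In SCI-MP cord, Egln3 lay -0.07 from S-EtOH (adjusted p = 0.646) and Unc93b1 0.10 (adjusted p = 0.652), while Slc16a3 was still 1.51 higher (adjusted p = 2.10e-05) and Sema4a was 0.82 lower (adjusted p = 0.00043). Of the 12 leading falls, 3 were higher in SCI-EtOH at 0 h (unadjusted p under 0.05, limma), as were 9.98% of all probe sets. Of the 12 leading rises, 3 were lower at 0 h, as were 4.34% of all.

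**Figure D2:**
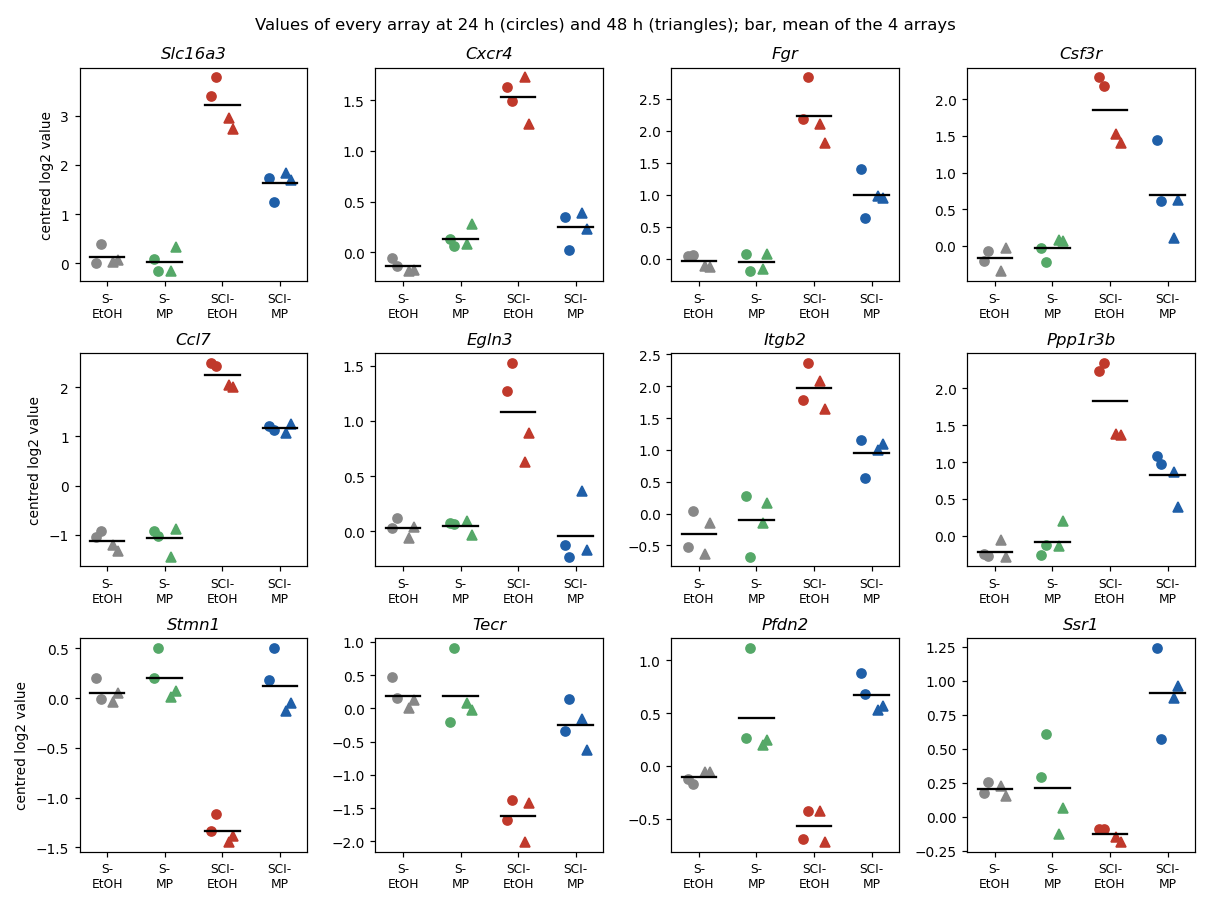
Centred log2 values of every array for 8 of the leading falls and 4 of the leading rises, by group, at 24 h (circles) and 48 h (triangles), 2 arrays per group and time, with a bar at the mean of the 4 arrays. These genes were chosen among probe sets whose SCI-MP and SCI-EtOH arrays did not overlap at either time, so that gap is set by the choice, and the panels show the centred value of each array, such as 3.41 and 3.78 for Slc16a3 in the SCI-EtOH arrays of 24 h.

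Among the rises, the 12 largest stood for 7 genes, since 6 of them were probe sets of Rps15a, the only 6 with that symbol alone. Their differences ran from 1.35 to 1.59 with adjusted p of 0.027 to 0.0327. For the one with the largest difference, Rps15a read 0.13 and 0.76, then -0.11 and 0.35 with vehicle, and 2.07 and 1.61, then 2.04 and 1.78 with MP, and no MP array overlapped a vehicle array. These 6 probe sets carry 1 symbol, ribosomal protein genes have many near-identical processed copies, and which copy each probe set measures cannot be told from these files. Stmn1, which destabilizes microtubules and is high in growing neurons and dividing cells, read -1.33 and -1.16 at 24 h and -1.45 and -1.38 at 48 h with vehicle. With MP it read 0.18 and 0.50, then -0.12 and -0.05. It rose by 1.46 (SE 0.10, adjusted p = 0.0125), which is 2.75-fold, the smallest adjusted p among the 24 leading probe sets. Stmn1 differed from S-EtOH by -1.38 in SCI-EtOH and by 0.07 in SCI-MP (adjusted p = 0.552 for the latter). Stmn1 differed between injured and sham cord at 0 h by -0.53 (unadjusted p = 0.00229, adjusted p = 0.0994).

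Tecr, the reductase that ends each round of very-long-chain fatty acid elongation, read -1.67 and -1.37, then -2.01 and -1.43 with vehicle, and -0.35 and 0.14, then -0.17 and -0.62 with MP. It rose by 1.37 (SE 0.18, adjusted p = 0.0274), and a second Tecr probe set by 0.83 (SE 0.09, adjusted p = 0.0195). At 0 h the first Tecr probe set differed by -1.39 (unadjusted p = 0.000481, adjusted p = 0.0689). Pfdn2, a subunit of the prefoldin chaperone, rose by 1.23 (SE 0.11, adjusted p = 0.0142), from -0.72 to -0.42 in vehicle arrays to 0.53 to 0.88 with MP, and its 0 h difference was -0.07. Ssr1, a subunit of the complex beside the endoplasmic reticulum translocon, rose by 1.04 (SE 0.14, adjusted p = 0.0274). Tmod3, which caps actin filaments, rose by 1.11 (SE 0.20, adjusted p = 0.0416), although SCI-MP 24 h duplicate 2 read 0.84 and the other 3 MP arrays 1.68 to 1.85. Laptm4b, a lysosomal membrane protein, rose by 1.06 (SE 0.17, adjusted p = 0.0318).

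Promoter sequences of RefSeq (build GRCr8) were found for 14 of the 19 leading genes. In the 250 bases before the start, 8 motifs were searched on both strands, and the sequences of Slc16a3, Stmn1 and Ssr1 are shown. Slc16a3 had the largest fall past the threshold, Stmn1 the largest rise outside Rps15a, and Ssr1 matched the same letters as Stmn1. The promoter of Rps15a, whose probe sets cannot be assigned to a copy, is not shown. Capitals mark the matches, TGACTCA (AP-1, read as TGAGTCA on the other strand) for Slc16a3 and the core ACGTG of the hypoxia response element, which overlaps itself in CACGTG, for the other pair.
Slc16a3, chr10:106712078-106712327, plus strand: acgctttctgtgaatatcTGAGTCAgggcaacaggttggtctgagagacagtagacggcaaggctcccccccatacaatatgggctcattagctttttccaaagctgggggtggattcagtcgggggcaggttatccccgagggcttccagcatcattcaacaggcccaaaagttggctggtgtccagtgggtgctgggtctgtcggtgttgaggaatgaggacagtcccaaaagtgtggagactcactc
Stmn1, chr5:151964929-151965178, plus strand: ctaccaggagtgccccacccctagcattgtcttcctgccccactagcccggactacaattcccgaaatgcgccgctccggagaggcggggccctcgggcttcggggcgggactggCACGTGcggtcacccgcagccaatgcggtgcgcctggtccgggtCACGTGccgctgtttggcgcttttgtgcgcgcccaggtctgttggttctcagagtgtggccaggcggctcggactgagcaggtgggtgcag
Ssr1, chr17:27039043-27039292, plus strand: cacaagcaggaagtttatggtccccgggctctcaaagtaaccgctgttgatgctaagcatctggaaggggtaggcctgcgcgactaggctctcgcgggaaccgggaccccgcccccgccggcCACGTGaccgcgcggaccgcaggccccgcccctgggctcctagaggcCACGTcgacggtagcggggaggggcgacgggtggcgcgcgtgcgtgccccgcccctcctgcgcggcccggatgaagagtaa
TGACTCA was in 1 of the 8 promoters of leading falls, and in 4.05% of all 33469 promoters. ACGTG was in 2 of the 6 promoters of leading rises and in 0 of the 8 of leading falls, against 16.6% of all. The full glucocorticoid response element was in none of the 14 and in 0.012% of all, and its shorter part TGTTCT was in Rps15a alone, against 17.5% of all. The kappaB site (0.164% of all), GAGGAAGT (PU.1, 2.04%), TACGTG (2.95%, which contains ACGTG) and CCGGAAGT (ETS factors, 3.10%, which shares GGAAGT with the PU.1 letters) were in none of the 14. A match is a run of letters, and this window leaves out more distant elements.

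The 423 probe sets were chosen by p on these 8 arrays over both times, which nearly fixes their separation at each time, so it is given as a description only. All 423 had both MP arrays on one side of both vehicle arrays at 24 h and again at 48 h (7.09% of all probe sets were apart upwards and 11.8% downwards), and in 410 the 4 MP arrays lay beyond the 4 vehicle arrays (4.97% and 8.29%). Over all probe sets the differences at 24 h and at 48 h, which share no array, correlated at 0.54, as a description across probe sets that share arrays. Taken alone, neither time had a call: limma gave 0 probe sets at 24 h (661 higher and 1309 lower at an unadjusted p under 0.05, 4.38% and 8.67%) and 0 at 48 h (674 and 949, 4.46% and 6.29%). The change of the difference from 24 h to 48 h passed the threshold for 0 probe sets, with 230 higher and 133 lower at an unadjusted p under 0.05 (1.52% and 0.881%). Slc16a3 differed by -2.09 at 24 h and by -1.08 at 48 h, a change of 1.02 (SE 0.29, unadjusted p = 0.0109, adjusted p = 1). Arg1, arginase of wound macrophages, differed by -2.43 and -0.79, and did not pass over both times (-1.61, SE 0.39, adjusted p = 0.0733).

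In sham cord the same medication gave 0 calls in limma at 24 and 48 h, with 329 probe sets higher (2.18%) and 724 lower (4.80%) where p was under 0.05 before adjustment. The spread in this test came from 16 arrays, injured and sham together, but that behind the 423 came from injured arrays alone. With spread from the same 16 arrays, the count in injured cord was 1844, so the 0 cannot be set against the 423. The count of calls in sham cord, past the adjusted threshold, was 981 after quantile normalization (347 higher and 634 lower) and 101 with array weights. The difference with MP itself differed between injured and sham cord for 244 probe sets (1.62%), higher in injured cord for 121 (0.801%) and lower for 123 (0.815%). This count fell to between 3 and 37 without any 1 sham array other than S-MP 24 h duplicate 2 (193), to 67 without SCI-MP 48 h duplicate 1, to 99 without SCI-EtOH 24 h duplicate 2 and to 153 without SCI-MP 24 h duplicate 2, and was 493 without SCI-MP 24 h duplicate 1. In sham cord, 181 of the 259 probe sets that fell in injured cord lay below 0 and 95 of the 164 that rose lay above it, with medians of -0.06 and 0.03. Of the leading 24, 10 of 12 falls and 7 of 12 rises passed, but they were chosen for their difference in injured cord, which is 1 term of this contrast, so nothing is read from that count. Cxcr4 differed by 0.27 in sham cord and by -1.28 in injured cord, a difference of -1.56 (SE 0.15, adjusted p = 0.00427). Stmn1 differed by 0.15 in sham cord, 1.31 less than in injured cord (SE 0.13, adjusted p = 0.00427). Pfdn2 differed by 0.56 in sham cord (unadjusted p = 0.00394, adjusted p = 0.393), and its difference between injured and sham cord was 0.67 (adjusted p = 0.148). Arg1 had the largest difference past this test, -1.91 (SE 0.32, adjusted p = 0.0292), and Cybb, the catalytic subunit of the phagocyte NADPH oxidase, had -1.44 (SE 0.27, adjusted p = 0.0352), while neither passed in injured cord alone (Cybb -1.18, adjusted p = 0.0516). Tnf, which was -0.58 in injured cord (adjusted p = 0.057), differed by -0.90 (SE 0.11, adjusted p = 0.0149). The test in injured cord alone took its spread from fewer arrays than this contrast. With spread from 60 arrays, the difference in injured cord passed in limma for Arg1 (adjusted p = 7.34e-05), Cybb (0.000215) and Tnf (0.00191). Missing the threshold in injured cord alone therefore does not show that their difference was absent there.

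**Figure D3:**
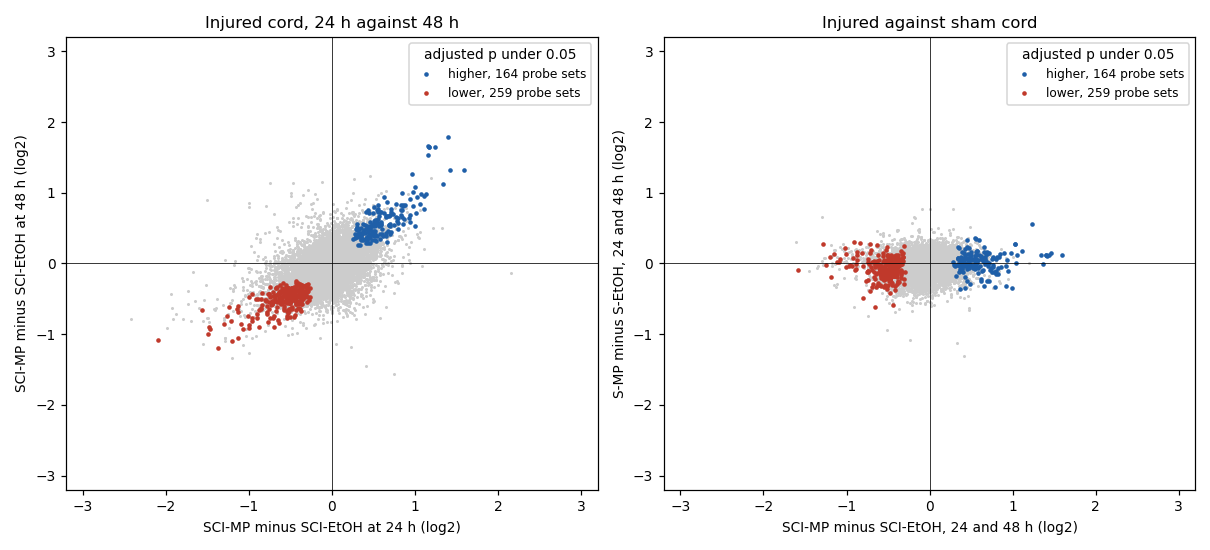
Left, difference with MP in injured cord at 24 h (horizontal) against 48 h (vertical); right, difference over both times in injured (horizontal) against sham cord (vertical), all in log2, with 1 point for each of the 15097 probe sets and the 164 higher and 259 lower probe sets coloured. The coloured probe sets were chosen by their difference over both times, which sets their quadrant on the left, and in sham cord 181 of the 259 and 95 of the 164 lie on the same side of 0 as in injured cord.

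At earlier times after medication, MP was already followed by differences of the same sign in many leading genes. At 2 to 6 h 243 probe sets were higher (1.61%) and 1554 lower (10.3%) with MP, 11.9% in all, and at 8 and 12 h 420 (2.78%) and 634 (4.20%), 6.98% in all. The spread in these tests came from all injured arrays from 2 h to 48 h, but that behind the 423 came from 8 arrays. With spread from 60 arrays the count at 24 and 48 h was 2108, so these shares cannot be set against the 423. Of the 12 leading falls, 6 were lower at 2 to 6 h and 9 at 8 and 12 h, and of the 12 leading rises, 11 were higher at 2 to 6 h and 4 at 8 and 12 h. The 6 probe sets of Rps15a, which carry 1 symbol, were all among the 11 and none was among the 4. Slc16a3 was lowest at 8 h, by -2.83, and Csf3r was -1.87 at 8 h but 0.44 at 12 h. The mean difference of Rps15a was near 0 at 8 h for all 6 probe sets. Changes between single times before 24 h, such as from 8 h to 12 h, were not tested. For the mean over 24 and 48 h, limma gave 0 probe sets against the mean over 2 to 6 h (449 higher, 2.97%, and 269 lower, 1.78%, before adjustment). Against the mean over 8 and 12 h it gave 0 (334, 2.21%, and 765, 5.07%). The duplicates of SCI-EtOH at 6 h correlated at 0.18 over probe sets, the lowest of all pairs in the series, with array SDs of 0.486 and 0.240. The part of this pair in the values at 2 to 6 h was not tested.

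**Figure D4:**
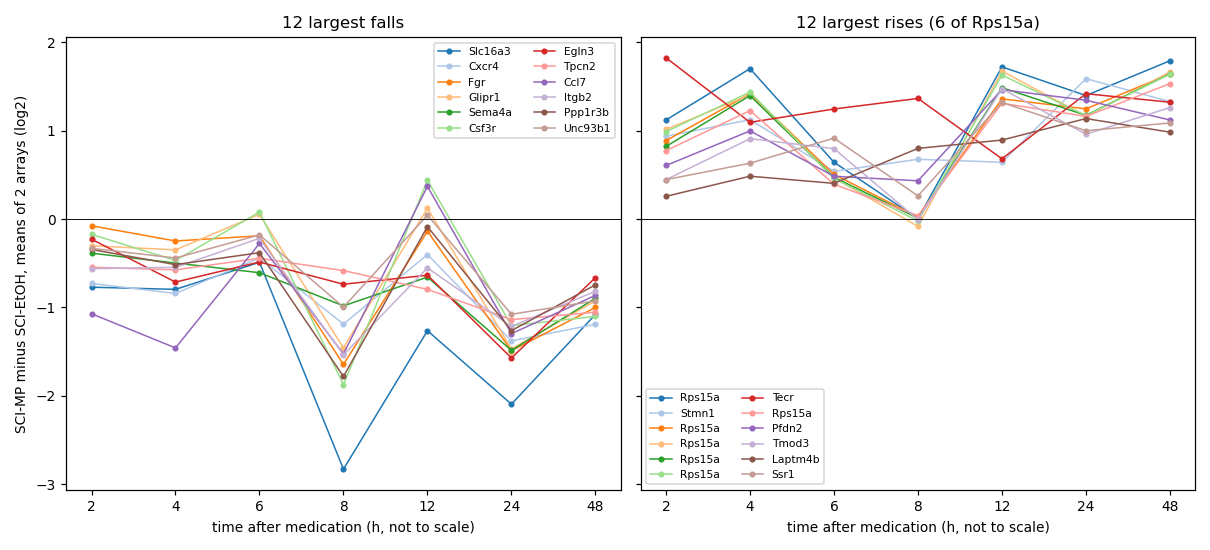
Difference of the SCI-MP and SCI-EtOH means (log2, 2 arrays each) at each time after medication for the 12 leading falls (left) and the 12 leading rises (right), with lines joining the times, which are not to scale. Slc16a3 reaches -2.83 at 8 h, Csf3r goes from -1.87 at 8 h to 0.44 at 12 h, and the 6 Rps15a lines meet near 0 at 8 h.

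Neutrophil and macrophage lists had medians below that of all probe sets, with few genes past the threshold. Of 18 neutrophil markers, 1 (Csf3r) passed, and 8 were lower and 0 higher at an unadjusted p under 0.05, against 13.3% and 7.26% of all probe sets. Their median was -0.60, against -0.03 over all. Mmp9, a gelatinase of neutrophil granules, was -1.29 (adjusted p = 0.127), from 1.74 to 3.47 with vehicle and 0.36 to 1.78 with MP, so that the groups overlapped. Cxcr2, the neutrophil chemokine receptor, was -1.27 (adjusted p = 0.079), and Camp and Ltf, granule proteins, were 0.02 and 0.01. The mean of the 18 markers was 1.67 and 2.09 at 24 h and 0.77 and 1.28 at 48 h with vehicle, and 1.34 and 0.77, then 0.97 and 0.18 with MP. The groups were apart at 24 h and overlapped at 48 h. Of 19 monocyte and macrophage markers 0 passed in limma (before adjustment, 5 lower and 1 higher at p under 0.05), and their median was -0.40, and of 23 phagocytic genes 0 passed (12 lower, 1 higher), with a median of -0.35. Clec7a, a fungal glucan receptor, was -0.89 (adjusted p = 0.0602) and Tyrobp, an adaptor of microglial and myeloid receptors, was -1.01 (adjusted p = 0.0503).

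Signalling lists held few calls: some held falls, complement held 1 rise and others held none. NF-kappaB and toll-like receptor signalling (18), immediate early and MAP kinase feedback genes (24) and MHC class II presentation (14) had 0 calls in limma. At an unadjusted p under 0.05 they had 3, 2 and 5 lower and 0, 1 and 1 higher, with medians of -0.16, -0.23 and -0.02. Of all probe sets, 13.3% were lower and 7.26% higher at an unadjusted p under 0.05. Of 27 chemokine genes and receptors, 3 fell (Ccl2, Ccl7 and Cxcr4) and 0 rose, with a median of -0.29, where 1.72% of all probe sets fell and 1.09% rose. Of 15 adhesion genes, Itgb2 and Selplg, the selectin ligand of leukocytes, fell. Selplg fell by 0.77 (SE 0.12, adjusted p = 0.0302). Of 24 interferon response genes, Tap1, a peptide transporter of antigen presentation, fell by 0.45 and Irf1, a transcription factor, by 0.35. Interleukins and inflammatory mediators (25) had 0 calls, 10 lower and 0 higher at an unadjusted p under 0.05, and a median of -0.25. Vegfa, the main factor of vessel growth, fell by 0.68 (SE 0.13, adjusted p = 0.0442), the only call among 18 angiogenic and vascular genes. Plaur, the urokinase receptor, fell by 0.61 (SE 0.12), the only call among 15 genes of the coagulation and plasminogen system. After quantile normalization of the arrays these calls were lost for Vegfa (adjusted p = 0.126), Plaur (-0.40, adjusted p = 0.187), Tap1 (adjusted p = 0.118) and Irf1 (adjusted p = 0.063). Among 12 complement genes, C1qb, a subunit of the first component, rose by 0.65 (SE 0.12, adjusted p = 0.044), from 0.26 to 0.71 with vehicle to 0.95 to 1.34 with MP, and no other passed.

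Metabolic lists held falls in glycolysis. Of 44 glycolysis and lactate probe sets (24 genes), 7 fell (5 genes) and 0 rose, where 1.72% of all probe sets fell and 1.09% rose. Besides Slc16a3, Hk3, a hexokinase of leukocytes, fell by 0.87 (SE 0.17, adjusted p = 0.0478) and Gpi, the isomerase of the second step, by 0.60 (SE 0.10, adjusted p = 0.0346), while the median of the list was -0.13. After quantile normalization Hk3 no longer passed (adjusted p = 0.061). In lysosomal genes 3 of 27 fell, Atp6v0c, a proton pump subunit, by 0.45, Mcoln1, a calcium channel, by 0.49 and Gla, a galactosidase, by 0.43, and Mcoln1 did not pass after quantile normalization (adjusted p = 0.0766). In the respiratory chain 2 of 41 rose and 2 fell. Ndufs4, a subunit of complex I, rose by 0.86, Ndufa4 rose by 0.32, and Atp5mc2 and Atp5mc3 of the ATP synthase fell by 0.66 and 0.51, although a second Atp5mc2 probe set, at -0.37, did not pass (adjusted p = 0.0674).

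Lists of translation, folding and protein breakdown held rises and falls. Of 252 ribosomal protein probe sets (68 genes), 16 rose and 0 fell, where 1.09% of all probe sets rose and 1.72% fell, but the 16 stood for 6 genes (Rpl17, Rpl21, Rpl7a, Rps15a, Rps3a and Rps9) and the median of the list was 0.02. After quantile normalization 47 probe sets of the cytosolic ribosomal proteins rose and 0 fell, with a median of 0.14. Of 29 translation factor probe sets, 4 rose, both of Eef1a1, which delivers aminoacyl-tRNA (0.67 and 0.62), Eif3a, an initiation factor subunit (0.53), and Eif5b. Of 39 chaperone probe sets, 4 rose and 1 fell. Dnaja1, a co-chaperone, rose by 0.72 (SE 0.09, adjusted p = 0.0274), with a 0 h difference of -0.78, and Hspa9, the mitochondrial Hsp70, by 0.69 (SE 0.13). Of 34 proteasome probe sets, Psma7 rose by 0.98 and Psmc5 by 0.68, and Psmb5 fell by 0.43, while 22 of the 34 were below 0 and the median was -0.07. Of 27 genes of translocation and folding in the endoplasmic reticulum, Ssr1 and the chaperone Canx (0.46) rose and Syvn1, a ubiquitin ligase of that membrane, fell by 0.62, while 21 were below 0 and the median was -0.24.

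In lists named for the receptor and for the cells of the cord, counts of 0 or 1 are read against 2.80% of all probe sets, a share that gives under 1 call in a list of this size. Of 30 probe sets of glucocorticoid-induced genes, 0 passed in limma (before adjustment, 1 higher and 1 lower at p under 0.05), and their median was 0.11. Before adjustment, 7.26% of all probe sets were higher and 13.3% lower. Fkbp5, the co-chaperone of the glucocorticoid receptor, was 0.52 (SE 0.28, adjusted p = 0.341), and Tsc22d3, the leucine zipper that glucocorticoids induce, was 0.16 (SE 0.31). The neuron structural (17), myelin (14) and astrocyte (11) lists had 0 calls, with medians of 0.07, 0.13 and 0.03. Ermn, a protein of myelinating cells, was 0.84 (adjusted p = 0.0527). Nes, the intermediate filament of reactive astrocytes, fell by 0.56 (SE 0.11, adjusted p = 0.0478), but its difference was -0.16 after quantile normalization of the arrays (adjusted p = 0.765) and -0.29 with arrays scaled to 1 SD. Bax, which promotes apoptosis, fell by 0.54 (SE 0.11) in 1 of its 2 probe sets (adjusted p = 0.0529 after quantile normalization), and Atf5, a stress response transcription factor, by 0.44 (SE 0.08).

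**Figure D5:**
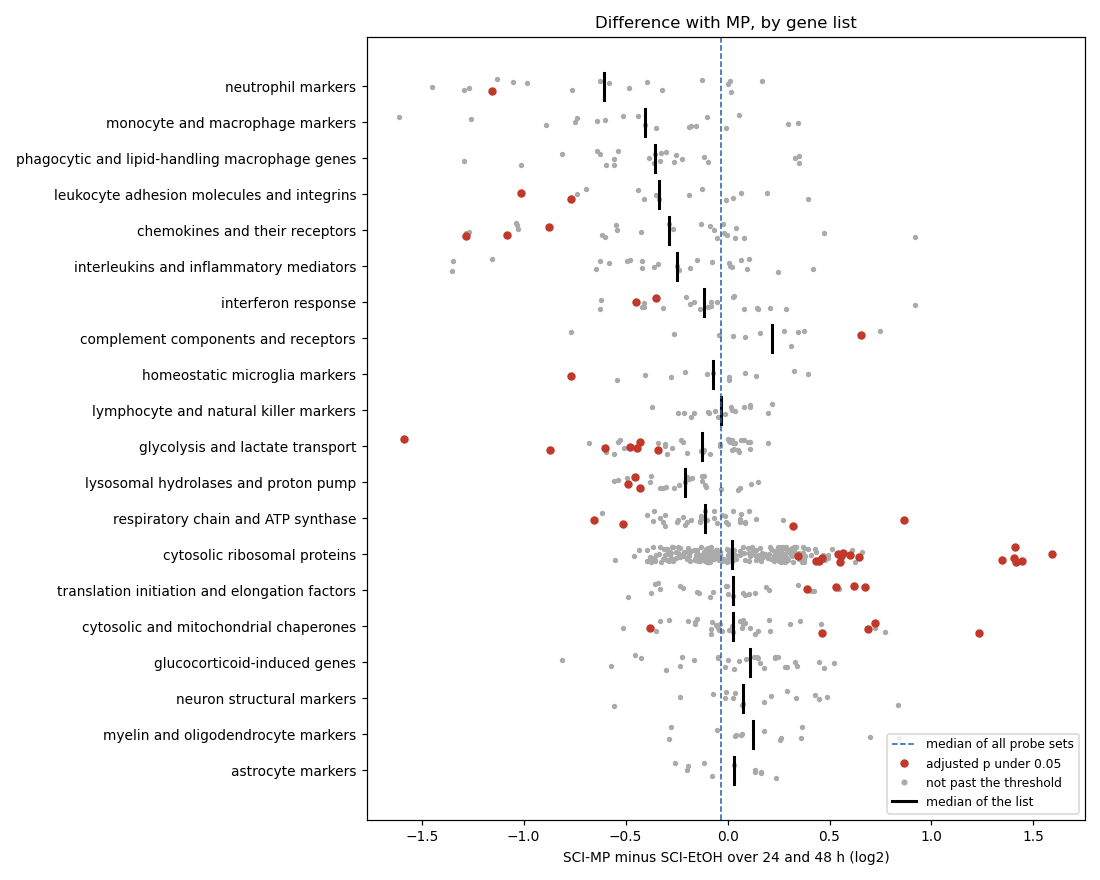
Difference with MP over 24 and 48 h (horizontal, log2) for every probe set of 20 gene lists, with the median of each list (black bar) and of all 15097 probe sets (dashed line). Probe sets past the threshold are red, and the neutrophil list has the lowest median, -0.60.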

How the data were processed

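The samples were 60 rat spinal cords, 1 array each. Per the submitters' processing notes and the study's methods, the authors ran RMA, normalized each chip and each gene in GeneSpring, and deposited log2 values. The sources used here do not give the reference to which genes were centred. Gene symbols came from the platform annotation, and gene IDs matched RefSeq for 15067 of 15097 with no symbol changed. Probe sets with several symbols (323) or none (11922) were left out, and no filter on low values was possible, so all members were tested.

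limma 3.58.1 in R 4.3.3 (lmFit, eBayes) fitted time and medication over 8 arrays, with 5 residual degrees of freedom, and Benjamini-Hochberg adjustment at 0.05. Other contrasts used 1 mean per group and time. The fit was tested on simulated data. Named were, by size, 12 rises and 12 falls past the threshold whose groups did not overlap at either time, up to 3 probe sets per gene list past it or the 1 with the smallest p, 5 per interaction, and defining genes of a list, leaving out LOC and RGD symbols. Members and the 50 lists were chosen with earlier results of these data known. Outside this rule, Cxcr2, Camp, Ltf, Fkbp5, Tsc22d3, Ndufa4, Eif5b, the ribosomal genes listed beside Rps15a, 3 of the 8 motifs and the neuron and cell cycle means per array were chosen after values were seen. Duplicate numbers were tested as a pairing: the differences of duplicates 1 and 2 correlated between SCI-MP and SCI-EtOH at 0.28 at 24 h and -0.57 at 48 h, so they were not taken as pairs. Alternatives covered normalization, samples in the fit, variance model, filter, test and arrays left out.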

Additional observations from a re-analysis of the deposited data

Results flagged for a closer look

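Of 116 tests of 4 arrays of 1 group for an array far from the others (Dixon's test), 4 were past it, and about 1 in 20 are by chance. The array SD of SCI-MP 24 h duplicate 2 was 0.363, below the other 3 SCI-MP arrays. The same array read 0.84 for Tmod3 and -0.18 for Unc93b1, below the other 3 in both. SCI-EtOH 48 h duplicate 2 read 0.20 for Psmb5, below the other 3 SCI-EtOH arrays.

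The contrast of injured with sham cord was 1 ground for naming probe sets, and the difference in injured cord, 1 of its terms, was the other. Nothing is therefore read from the count of named probe sets past it. The difference with MP differed between injured and sham cord (adjusted p under 0.05, limma) for 31 of the 83 named probe sets, against 244 of all 15097 (1.62%). Relative to sham cord it was higher in injured cord for Rps15a (1.47, 1.32, 1.31, 1.29 and 1.28), Stmn1 (1.31), Ssr1 (1.04), Canx (0.46), Dnaja1 (0.82), Ndufs4 (0.91), Eef1a1 (0.58 and 0.51), Eif3a (0.58) and lower for Slc16a3 (-1.49), Cxcr4 (-1.56), Fgr (-1.22), Glipr1 (-1.29), Sema4a (-0.995), Csf3r (-1.29), Egln3 (-1.13), Tpcn2 (-1.11), Ccl7 (-1.14), Ppp1r3b (-1.14), Hk3 (-0.99), Gpi (-0.52), Tnf (-0.90), Clec7a (-1.10), Tyrobp (-1.16), Chst11 (-0.59), Arg1 (-1.91), Cybb (-1.44), all on the log2 scale.

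Probe sets without exactly 1 gene symbol were not used in the comparisons. When all probe sets were adjusted together, 4.82% of these 12245 passed the threshold, 478 higher and 112 lower with MP.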

How the results depend on the processing

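With arrays quantile normalized, 324 probe sets were higher and 185 lower (509), and with array medians set to 0, 170 and 176 (346), so the share of rises moved from 164 of 423. Averaging probe sets of a gene gave 359, a robust variance prior 342 and a noise filter with the limits of the methods (CV under 50% in at least 16 of 30 pairs, which removed none) 423. The study reports that its own filter did remove probe sets, so this count does not show what that filter would give. The count past the threshold was 2108 with spread from 60 arrays, 1844 from 16 arrays, 867 with array weights, 635 when adjusted over all probe sets, 49 in an unmoderated linear model, 49 by the methods' analysis of variance with Tukey at both times, and 0 with the 0 h difference added. That sum also carries the spread of the 0 h arrays. The leading 24 all passed under the 60-array, 16-array, weighted, quantile, median, robust, filtered and all-probe-set settings, but 2, 3 and 0 of them passed in the unmoderated model, by the methods' test and with the 0 h difference added. The 64 list probe sets past the threshold became 236, 222, 119, 6, 8 and 0 with 60 arrays, 16 arrays, weights, the unmoderated model, the methods' test and the 0 h difference, and 92 after quantile normalization (72 higher and 20 lower, against 34 and 30). Leaving out 1 array at a time gave 0 to 92 probe sets, 0 to 17 of the leading 24 and 0 to 23 of the list probe sets.

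With the replicate block (duplicate number within time) 0 of the 423, 0 of the 24 and 0 of the list probe sets passed, with 2881 at an unadjusted p under 0.05, and the contrast of injured with sham cord gave 26. Crossing the numbers at 48 h, chosen after the data were seen, gave 914 and 121 list probe sets. Scaling arrays to 1 SD, also chosen then, gave 518.

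With 60 arrays, 944 probe sets passed at 24 h, 432 at 48 h, 24 in sham cord, 474 for injured against sham cord, 74 against 2 to 6 h and 89 against 8 and 12 h. In sham cord, quantile normalization gave 981, array weights 101 and leaving out an array 0 to 5. For injured against sham cord, quantile normalization gave 159 and leaving out an array 3 to 493. Against 2 to 6 h, medians at 0 gave 1 and leaving out an array 0 to 2, and against 8 and 12 h 0 to 1. With the 0 h difference added, Tecr (-0.0213), Ube2c (-0.11), Dnaja1 (-0.052), Pf4 (0.46) and Mvd (0.017) changed sign. The cause of these changes was not tested. The values hold no brightness over background, so dim probe sets could not be told from bright ones.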
